A study of Mus musculus with 2 samples.

Results

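The lung epithelial lineage transcription factors examined here are Nkx2-1, Foxa1, Foxa2, Gata6, Sox2, Sox9, Cebpa, Elf3, Grhl2 and Klf5. They were taken as a named set of 10 genes, and every non-control array probe that their RefSeq accessions name was kept, which gave 12 probes at 30 spots. These are 10 of 20656 genes named on the array. RNA was measured from lung epithelial cells of Mob1DKO mice and of wild-type (WT) mice, with 1 Agilent 1-colour oligonucleotide array for each. Both groups carry the strain label C57BL/6 and an age of 10 weeks. Mob1DKO is not spelled out by the labels and is read here as loss of Mob1a and Mob1b, whose products are co-activators of the LATS kinases in the Hippo pathway. The labels do not give the Cre driver or its induction, the sex of the mice, or how many animals each RNA preparation came from. With 1 array for each group there are no replicates, so differences are given by size alone, no test was run, and precision is limited by the number of arrays.

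Lung epithelium arises from foregut endoderm, and a small set of transcription factors sets its identity. NKX2-1 marks the lung field and later drives surfactant genes, the FOXA proteins open endodermal chromatin, and GATA6 and C/EBP alpha act in distal growth and alveolar maturation. SOX2 marks the proximal tubes that become conducting airway and SOX9 the distal tips that become alveoli, while ELF3, GRHL2 and KLF5 act in barrier formation and epithelial differentiation in many organs.

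The processed signal is the spot brightness after background subtraction. Its 75th percentile was 291 in Mob1DKO cells and 155 in WT cells, a ratio of 1.88, and each level below is log2 of the signal minus log2 of that percentile on its own array. Differences are Mob1DKO minus WT on this log2 scale. Of 55681 non-control probes, 58.6% cleared background in Mob1DKO cells and 53.1% in WT cells. The technical error of the difference of 1 spot was taken from probes that have 10, with a pooled SD of 0.089 over 169 probes at or above the 75th percentile and 0.36 over 102 dimmer ones. The scanner software's own error is wider, at 0.20 for a bright single spot, and neither covers the spread between animals or RNA preparations. The targeted gene Mob1b differed by −2.0 and −2.70 on its probes, and the 1 Mob1a probe differed by 0.07. The sources used here do not place these probes against the deleted parts, so the Mob1a value checks nothing. The RNA Xist, made from the inactive X chromosome of females, differed by −2.29 and −2.22, so sex and genotype cannot be told apart in any value below.

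All 10 lineage factors were well above background in both groups, and none differed 2-fold between them. Their differences ran from −0.46 for Sox9 to 0.40 for Gata6 with a median of 0.07, and 7 of the 10 lay above 0. Among all 15095 measured genes, meaning well above background on 1 array or both, the median was 0.02. The 2-fold rule asks for a log2 difference of at least 1 in size and a brighter value well above background. Of the measured genes 6.69% passed it, 3.79% as higher and 2.90% as lower in Mob1DKO cells. Among 8434 genes at or above the 75th percentile on average and measured on both arrays, 1.38% passed and 53.45% lay above 0. A count of 0 among 10 is near the shares that passed and is no result about the set. The 7 of 10 above 0 was not tested against the share of bright genes, and Sox9 is dimmer than those genes. At 1.5-fold the count was also 0 of 10, against 14.8% of all genes. Before scaling, every one of the 10 was brighter on the Mob1DKO array, by 1.36-fold to 2.47-fold, around the 1.88-fold ratio of the percentiles.

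**Figure D1:**
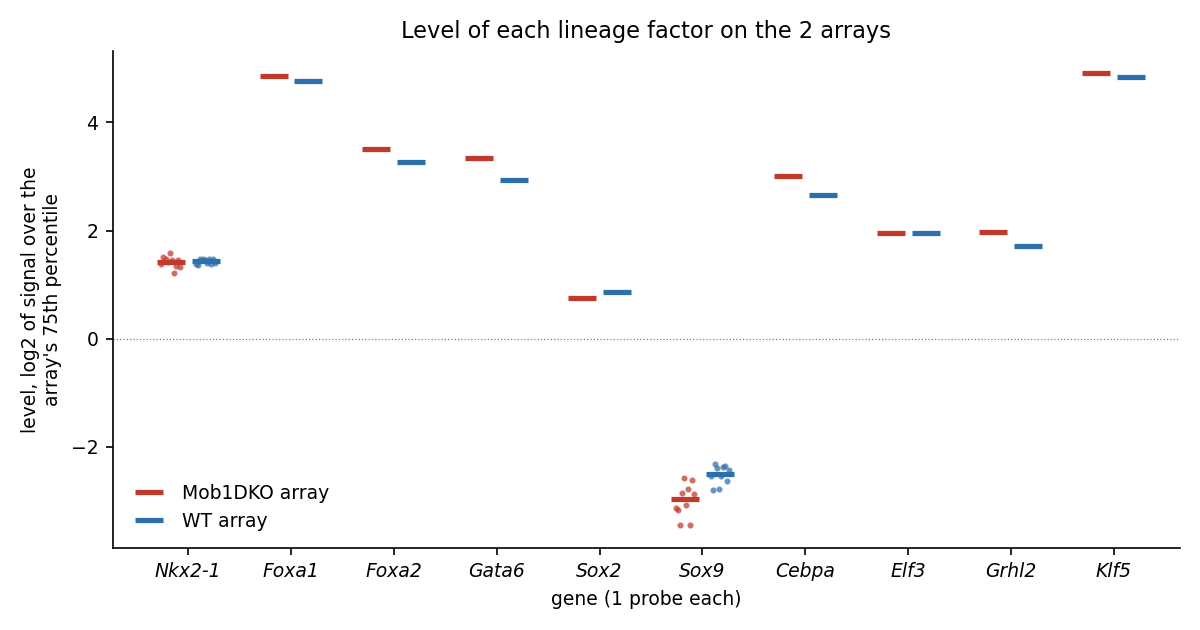
Level of each factor, as log2 of signal over the array's 75th percentile (dotted line at 0), on the Mob1DKO array (red, left) and the WT array (blue, right). Bars are probe values and points are the 10 single spots of Nkx2-1 and Sox9, levels of different genes come from different probes and are not comparable, and the bars of a gene are furthest apart for Sox9 (−2.97 and −2.51).

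Nkx2-1, the homeodomain factor of lung identity, was measured at 10 spots per array. They gave signals of 674 to 873 in Mob1DKO cells, with a median of 788, and of 396 to 433 in WT cells, with a median of 418. After scaling, the levels were 1.42 in Mob1DKO cells and 1.43 in WT cells, a difference of −0.01 with spot SDs of 0.10 and 0.046. The scaled spots overlapped: of the 10 Mob1DKO spots, 5 lay inside the WT range, 2 above it and 3 below it. The neighbouring long non-coding gene Sfta3-ps had signals of 5458 in Mob1DKO cells and 2436 in WT cells, a difference of 0.25.

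Foxa1 and Foxa2 encode forkhead factors that are partly redundant in lung branching. Foxa1 had a signal of 8421 in Mob1DKO cells and 4231 in WT cells, with levels of 4.85 and 4.77 and a difference of 0.08. This is smaller than the technical SD of 0.089. Foxa2 had signals of 3310 in Mob1DKO cells and 1494 in WT cells, with levels of 3.51 and 3.27 and a difference of 0.24. Its second, dimmer probe had signals of 645 and 296 in the same order and a difference of 0.21, close to the first. Both Foxa2 values are larger than the technical SD and about as large as the scanner error of 0.20.

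Gata6, a zinc-finger factor of endoderm, had the highest difference of the set. Its 1 probe gave signals of 2938 in Mob1DKO cells and 1188 in WT cells, with levels of 3.33 and 2.94. The difference of 0.40, or 1.32-fold, is above the technical SD of 0.089 and the scanner error of 0.20. Of 1411 other genes within 0.5 log2 units of its mean level, 94.5% had a lower difference, and the middle 50% of those genes ran from −0.11 to 0.18. Cebpa, which encodes a leucine-zipper factor of alveolar type 2 cells, was next. Its signals were 2351 in Mob1DKO cells and 977 in WT cells, with levels of 3.01 and 2.66 and a difference of 0.36, or 1.28-fold. It lay above 92.3% of 1565 genes of like level. Both genes thus sat in the upper part of the ordinary spread, short of 1.5-fold, and each rests on a single spot per array.

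**Figure D2:**
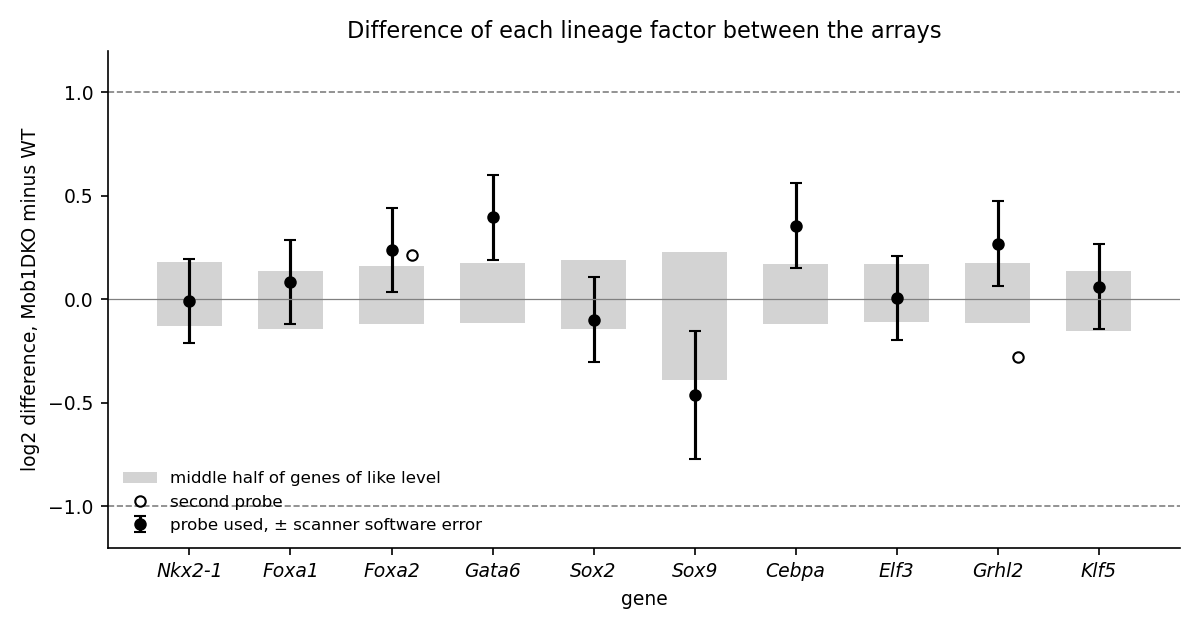
Log2 difference, Mob1DKO minus WT, of each factor (filled points, bars are ± the scanner software's error), with second probes of Foxa2 and Grhl2 as open points. Grey boxes span the middle 50% of genes of like level, dashed lines mark 2-fold, and Gata6 (0.40), Cebpa (0.36), Grhl2 (0.27) and Foxa2 (0.24) lie above their boxes while Sox9 (−0.46) lies below its box.

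Sox2 and Sox9 are the HMG-box factors that divide the developing lung into proximal and distal territories. Sox2 gave signals of 492 in Mob1DKO cells and 280 in WT cells, with levels of 0.76 and 0.86. Its difference of −0.10 is about the size of the technical SD of 0.089 and within the scanner error of 0.20. Sox9 was faint. Its 10 spots ran from 26.5 to 48.8 in Mob1DKO cells, with a median of 36.8, and from 22.3 to 31.0 in WT cells, with a median of 27.6. All of these spots were well above background. Scaled spot levels were −3.46 to −2.58 in Mob1DKO cells and −2.80 to −2.32 in WT cells, with spot SDs of 0.31 and 0.17. Of the 10 Mob1DKO spots, 7 lay below every WT spot and 3 inside the WT range. The probe differed by −0.46, or 1.38-fold lower on the Mob1DKO array, and 19.8% of 1328 genes of like level had a lower value.

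The proximal factor thus differed by −0.10 and the distal factor by −0.46, which puts Sox2 minus Sox9 at 0.36. The technical SD of that quantity is 0.14 from spots, with the Sox9 part reduced for averaging over its repeated spots. Its scanner error is 0.37, with the Sox9 part left at the size for a single spot. The quantity lies above the first and not above the second, but these errors were not built alike. Whether it would lie above a scanner error reduced in the same way was not tested, so this split decides nothing. The quantity was not tested over samples. Wider lists of proximal and distal factors, named below, had medians of −0.10 and −0.04, which are in the opposite order to Sox2 and Sox9.

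Elf3, Grhl2 and Klf5 belong to the ETS, grainyhead and Krüppel-like families. Elf3 had signals of 1133 in Mob1DKO cells and 600.2 in WT cells, with levels of 1.96 and 1.95 and a difference of 0.01. Klf5 had signals of 8755 in Mob1DKO cells and 4468 in WT cells, with levels of 4.91 and 4.85 and a difference of 0.06. Both genes were within the technical SD. Grhl2 had signals of 1144 in Mob1DKO cells and 506 in WT cells, with levels of 1.97 and 1.71 and a difference of 0.27. Its second, fainter probe had signals of 85.5 and 55.2 in the same order and differed by −0.28, within the technical SD of 0.36 for dim probes. The Grhl2 probes therefore disagree in sign, and with their mean in place of the brighter probe the Grhl2 difference was −0.005.

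Promoter windows of 250 bases before an annotated start were available for 6 of the 10 genes, in 8 windows, from RefSeq on build GRCm38.p6. They were searched on both strands for short motifs of the pathway's TEAD factors and of the lineage factors themselves. GGAATG, the core bound by the TEAD partners of YAP, occurred in 1 of 8 windows, that of Elf3, against 12.6% of 32851 windows of all genes. CAAGTG, an NKX2-1 core, occurred in 1, again Elf3, against 11.6%. The forkhead core TGTTTAC occurred once, before an internal start of Foxa1, against 3.17% of all windows. The GATA-binding core AGATAA likewise occurred once, before an internal start of Foxa2, against 9.99%. TATAAA occurred in 2, one being Cebpa at position −30, against 12.4%. The windows of Nkx2-1 and Sox2, and the other windows of Foxa2, held none of these letters. Elf3 and Cebpa are printed because they set a window with a TEAD core beside one without, for genes that differed by 0.01 and 0.36. A link between motif and difference was not tested, and 1 window with the core could not show one. Capitals mark the TEAD core at position −235 and the NKX2-1 core at −163 in Elf3, and the TATA motif in Cebpa. Positions are counted back from the start and give the first base. The Elf3 window is chr1:135258473-135258722 on the minus strand and the Cebpa window is chr7:35119043-35119292 on the plus strand. A match is a run of letters and not a shown binding site.
Elf3: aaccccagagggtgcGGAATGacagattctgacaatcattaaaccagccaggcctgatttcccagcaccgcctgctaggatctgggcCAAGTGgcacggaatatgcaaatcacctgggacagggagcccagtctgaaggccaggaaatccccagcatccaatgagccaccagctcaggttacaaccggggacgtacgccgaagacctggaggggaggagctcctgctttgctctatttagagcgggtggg
Cebpa: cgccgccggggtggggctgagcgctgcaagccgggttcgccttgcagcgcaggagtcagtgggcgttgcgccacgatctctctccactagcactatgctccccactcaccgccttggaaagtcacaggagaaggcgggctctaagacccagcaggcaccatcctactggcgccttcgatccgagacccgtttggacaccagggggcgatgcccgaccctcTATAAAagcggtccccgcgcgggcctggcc

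**Figure D3:**
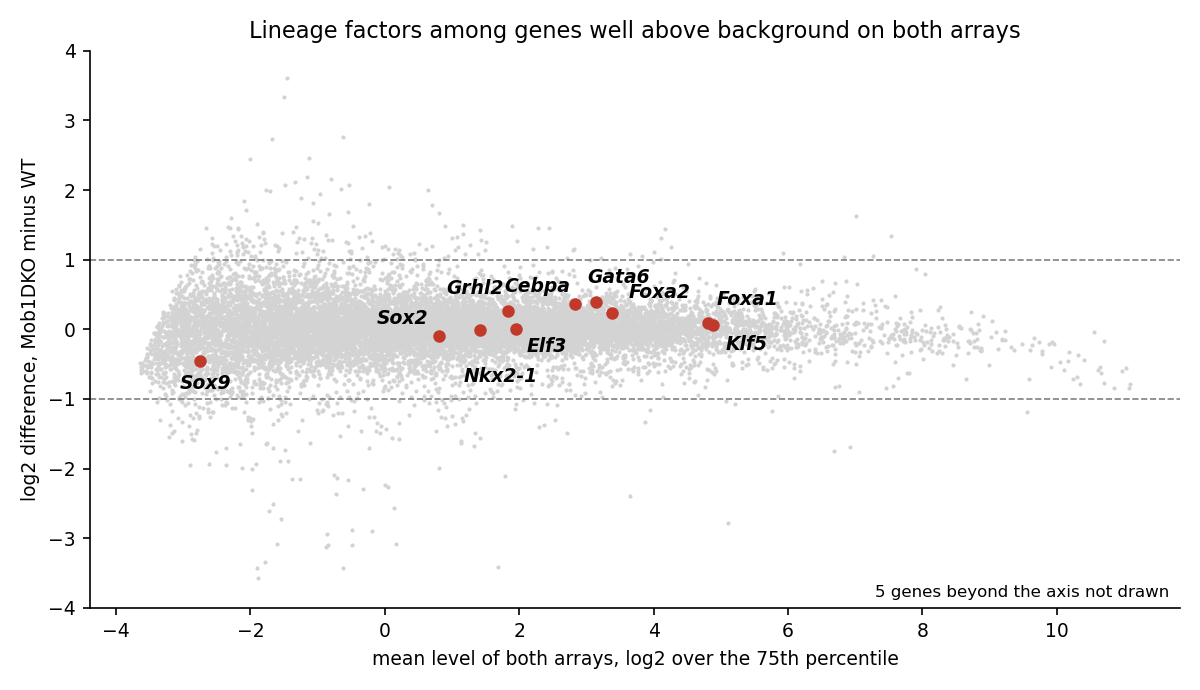
Log2 difference, Mob1DKO minus WT, against mean level for 13858 genes well above background on both arrays (grey, with 5 more outside the axis), with the 10 lineage factors in red. Dashed lines mark 2-fold, and the factors lie inside them, Sox9 at the faint left and Foxa1 and Klf5 at the bright right.

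Close relatives of the factors were measured as a list of 31 paralogs, of which 21 were measured. Of these, 1 was higher and 1 lower by the 2-fold rule, with a median of −0.03, against 0.02 and 6.69% for all genes. Gata5, a GATA factor related to Gata6, had signals of 340 in Mob1DKO cells and 475 in WT cells. Its levels were 0.22 and 1.62, a fall of 2.62-fold on 1 probe, with Gata6 at 0.40 in the other direction. Sox3, an X-linked gene, cleared background in Mob1DKO cells only, with a signal of 109 there and 2.88 on the WT array, and was at least 4.10-fold higher. With normexp background correction and an offset of 50 its difference was 0.91, under 2-fold. The brightest relatives were Klf6 and Cebpd, at 0.16 and 0.07. None of the forkhead relative Foxa3 and the endothelial factors Sox7, Sox17 and Sox18 was well above background on either array.

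**Figure D4:**
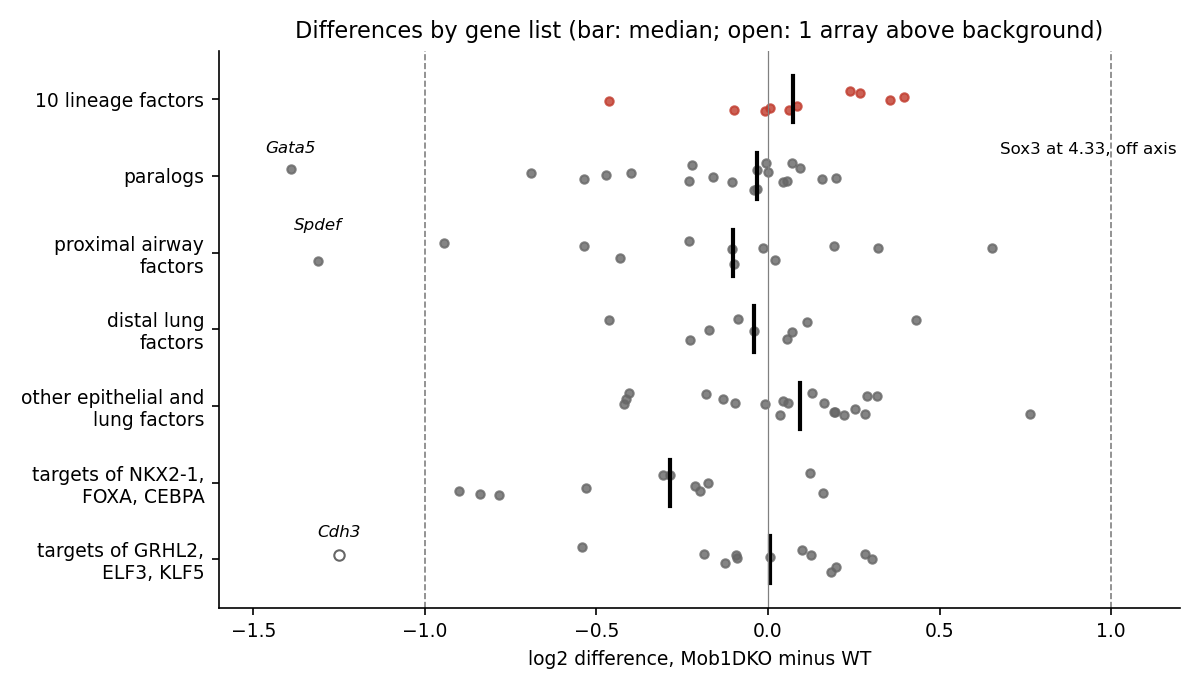
Log2 difference, Mob1DKO minus WT, of each measured gene, by list, with a bar at the median and open points for genes above background on 1 array. The 10 factors (red) run from −0.46 to 0.40, Gata5, Spdef and Cdh3 lie beyond −1, and Sox3 (4.33) is off the axis.

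Proximal airway factors other than Sox2 include the regulators of ciliated, basal and goblet cells. Of 13 listed with Sox2, 12 were measured and 4 lay above 0. By the 2-fold rule 1 passed as lower and none as higher, against 2.90% and 3.79% of all measured genes. The member that passed was Spdef, a goblet cell factor, with signals of 414 in Mob1DKO cells and 547 in WT cells and a fall of 2.48-fold. With normexp and the offset its difference was −0.99, just short of 2-fold. Mcidas, a ciliated cell regulator, and Trp63, the basal cell factor p63, were the brightest, at 0.02 and −0.23. The 1 Mcidas probe had very high signals of 81943 in Mob1DKO cells and 42969 in WT cells, and which transcript it reads was not tested. A second Trp63 probe was well above background on the WT array only and fell by at least 2.47 on the log2 scale, so the Trp63 probes disagree in size. All 9 distal lung factors were measured and none passed, with Etv5 and Cebpd brightest at −0.09 and 0.07. None of 20 other epithelial and lung development factors passed, and their median was 0.09. Irx1 and Ets2 were the brightest of them, at 0.25 and −0.01. Beside the 6.69% of all measured genes that passed, counts of 0 or 1 in such short lists are no result about the lists.

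Factors of other endodermal organs were mostly undetected. Of 9, only Hnf4a and Hhex were well above background, faintly, at 0.30 and 0.28. Cdx1, Cdx2, Pdx1, Pax8, Onecut1 and Foxe1, which mark intestine, pancreas, thyroid or liver, were not well above background in either group.

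Genes that NKX2-1, FOXA and C/EBP alpha are known to activate in lung were read as a list of their own. All 11 measured members were above background on both arrays, 9 lay below 0 and the median was −0.29. Of the 8434 genes at or above the 75th percentile and measured on both arrays, 53.45% lay above 0. None of the 11 passed the 2-fold rule, against 1.38% of those genes, so that count is no result about the list. The direction of the 11 was not tested. Lamp3 and Napsa, genes of alveolar type 2 cells, lay above 0, at 0.16 and 0.12, so the targets and the factors overlap. The brightest were the club cell protein gene Scgb1a1 and the surfactant gene Sftpc, at −0.84 and −0.78. Before scaling their signals were nearly equal on the arrays. Scgb1a1 had 471920 in Mob1DKO cells and 449250 in WT cells, and Sftpc had 485300 and 444600 in the same order. Whether such bright probes neared the upper limit of the scanner was not tested. With a level-dependent loess correction the median of these targets was −0.11, and with quantile normalization it was −0.087. The 13 genes regulated by GRHL2, ELF3 or KLF5 had a median of 0.01. Of these, Krt18 and Krt8 were the brightest at −0.13 and −0.09, and Cdh3, a cadherin of basal cells, was at least 2.32-fold lower on a probe that cleared background in WT cells only. With normexp its difference was −0.69 with the offset and −0.84 without, both short of 2-fold.

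Markers were read beside these values. All 10 lung epithelial markers were measured on both arrays, and none passed the 2-fold rule, which 6.69% of all measured genes passed. Their median was 0.00, but 5 lay above 0 and 5 below. Foxj1 was at 0.65, Ager at 0.42 and Hopx at 0.43 on its brighter probe. Scgb1a1 was at −0.84, Sftpc at −0.78 and Sftpb at −0.31, so the median does not show an unchanged mix of epithelial cells. Summed signals of their probes were 1499200 in Mob1DKO cells and 1222000 in WT cells, −0.61 after scaling, a sum carried mostly by Sftpc and Scgb1a1. Both of those genes had nearly equal signals on the arrays before scaling, as given above. Of 6 leukocyte markers with a probe, 3 were measured and none passed, with Ptprc among those not well above background, and summed signals of 71584 in Mob1DKO cells and 43028 in WT cells, −0.18 after scaling. That sum is mostly Lyz2, which is also in the list of lung targets, while Marco differed by 0.19 and Cd3e by −0.13. Of 7 endothelial markers 2 were measured, Pecam1 and Kdr, with Cdh5, Tek and Cldn5 not well above background, and summed signals of 7283 in Mob1DKO cells and 5854 in WT cells, −0.59 after scaling. That sum is mostly 1 Kdr probe, at −0.60, while the Kdr probe with 10 spots differed by 0.05 and Pecam1 by 0.12. All 8 mesenchymal and mesothelial markers were measured and none passed, with summed signals of 24636 in Mob1DKO cells and 16311 in WT cells, −0.31 after scaling. Among 5 red cell markers, Alas2 was not well above background, and the 4 globins all passed the 2-fold rule as lower, against 2.90% of all measured genes. Summed signals of the globins were 378 in Mob1DKO cells and 2158 in WT cells, −3.42 after scaling. Hba-a1 and Hba-a2 differed by −3.10 and −3.42, while Hbb-bs and Hbb-bt cleared background in WT cells only. The part of these cells in the factors' values was not tested, and in bulk RNA fewer cells of a type and less RNA per cell cannot be told apart.

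**Figure D5:**
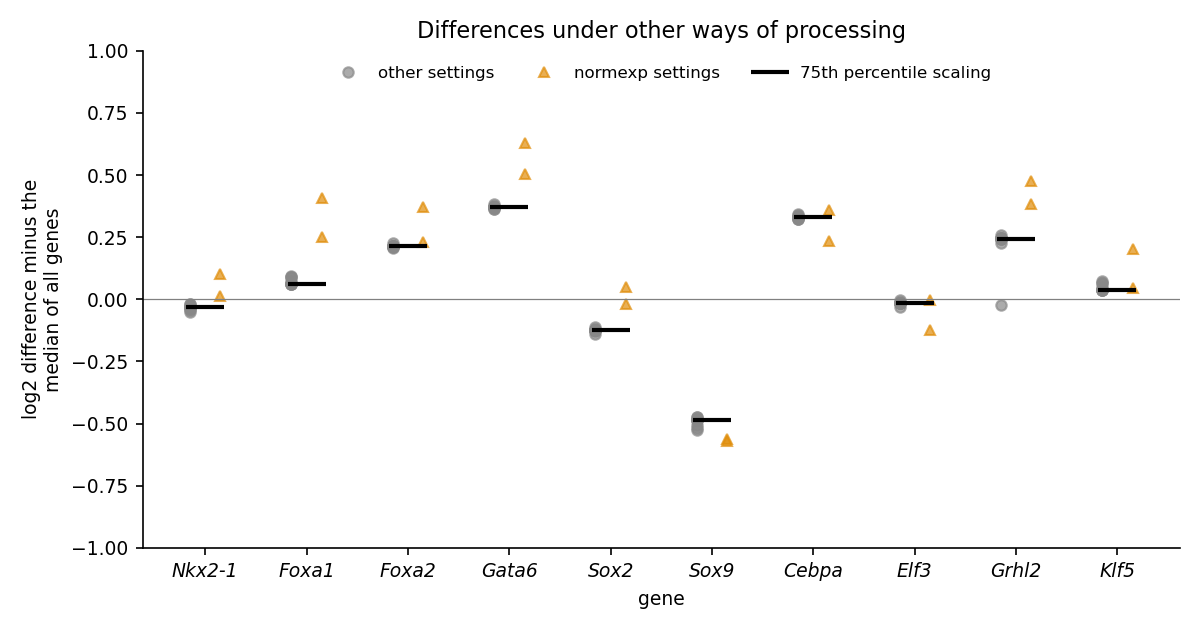
Log2 difference, Mob1DKO minus WT, of each factor minus the median of all genes, under scaling by the 75th percentile (black bar), normexp background correction of the median spot signal (orange triangles) and other settings (grey points). Gata6, Cebpa, Foxa2, Foxa1 and Klf5 stay above 0 and Sox9 and Elf3 below 0 in all settings drawn, while Nkx2-1, Sox2 and Grhl2 lie on both sides. Several of the settings could not move a gene with 1 probe at 1 spot.

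Across 12 other ways of processing the signals, Gata6 stayed between 0.36 and 0.63 above the median of all genes, and Cebpa between 0.24 and 0.36. Sox9 stayed between −0.57 and −0.47. Sox2 ran from −0.14 to 0.05 and Nkx2-1 from −0.05 to 0.10. Several of these settings could not move Gata6, Cebpa or Sox2, which have 1 probe at 1 spot per array. For such genes the choice of probe or of spot average changes nothing, and a scaling constant cancels once the median of all genes is subtracted. The narrow ranges are therefore in part fixed by the design of the settings. In the authors' deposited value table, which is on a linear scale, Gata6 had 2248 in the Mob1DKO column and 1717 in the WT column, Sox9 had 27.7 and 39.2 in the same order, and Nkx2-1 had 594 and 602.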

How the data were processed

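RNA of lung epithelial cells was hybridised to 1 array per group. The authors deposited scanner files whose intensity values per spot were, per the file headers, extracted with Agilent Feature Extraction 10.7.1.1 on a grid of build mm9, and with version 9.5.1.1 per the submitters' processing notes. The deposited processed intensity is background-subtracted and detrended within the array. The deposited value table has column medians of 27.3 each. Its columns track the processed intensity of their own arrays, so its direction is that of the labels and it is linear and not centred. The sources used here do not give how it was made.

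Spots of a probe were averaged, control spots were left out, and log2 signal minus the array's 75th percentile was taken. Of 55681 probes, 27229 were named through RefSeq accessions in a GRCm38.p6 table used only for names and neighbours. A gene took its brightest probe well above background on at least 1 array. Where the dimmer array was not well above background, a fold is a bound against the lowest signal well above background there. Genes of like level lie within 0.5 log2 units. The members and lists were chosen with earlier results of these data known. Named genes are the factors, list members past 2-fold, the 2 brightest of each list and the factors' neighbours, and any other list member was named after its values were seen. The files hold no mean spot signal, so normexp (limma 3.58.1 in R 4.3.3, offset 50) used the median.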

Additional observations from a re-analysis of the deposited data

How the results depend on the processing

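No paired analysis was possible because each group has 1 array, and leaving out an array was not possible for the same reason. The count of factors past 2-fold was 0 under every setting but 1, and the count by the 1.5-fold rule was also 0. It was 4 without scaling between the arrays, where 41.9% of all genes passed. There the median of all genes was 0.93 and that of the factors 0.98. The medians of the lists were 0.88 (paralogs), 0.81 (proximal), 0.87 (distal), 1.0 (other lung factors), 0.62 (NKX2-1, FOXA and CEBPA targets) and 0.92 (GRHL2, ELF3 and KLF5 targets). With normexp and an offset of 50, the median of the factors was 0.28, Sox2 minus Sox9 was 0.61, and the list medians were −0.14 (paralogs), 0.24 (other lung factors), −0.15 and 0.21 (the target lists in the same order). Without the offset, a setting chosen after seeing the data, Sox2 minus Sox9 was 0.55 and the proximal median −0.21. The NKX2-1 target median was −0.087 by quantile normalization, −0.11 by loess and −0.087 in the deposited value table, and that of the GRHL2 list 0.12, 0.13 and 0.12. The causes of these shifts were not tested. The deposited table followed quantile normalization closely, with Cebpa at 0.346 and 0.348 in that order, so it adds little as a separate setting. Sox2 minus Sox9 was above 0 in all 12 settings, from 0.33 to 0.61. It was the same 0.36 under median scaling, no scaling, outlier removal, the settings on probe choice and the filter on both arrays. Those settings could not change it, since a scaling constant cancels and each gene has 1 probe with no outlier spot. The share of all genes past 2-fold was 1.80% with normexp and the offset, against 6.69%. Gata5 stayed between −1.43 and −1.16 relative to all genes and Spdef between −1.35 and −0.99. Each of these 2 genes has 1 probe at 1 spot per array, so several settings could not move them. Sox9 and the second Grhl2 probe lie near background, which limits their precision.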

Other observations

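Some further list members are named here after their values were seen. Irx3, an Iroquois homeobox gene, had signals of 2683 in Mob1DKO cells and 842 in WT cells, a difference of 0.76 that ranged from 0.70 to 0.81 relative to all genes over 12 settings. Foxj1, the master factor of motile cilia, had signals of 2393 in Mob1DKO cells and 810 in WT cells, a difference of 0.65 that ranged from 0.62 to 0.79. Irx3 and Foxj1 each have 1 probe at 1 spot per array, so several settings could not move them and these ranges are in part fixed. Of other listed factors linked to ciliated cells, Myb lay above 0 at 0.19 and Mcidas near it at 0.02. Rfx2 lay below 0 at −0.43, Rfx3 at −0.54 on the brightest of its 3 probes, and the faint Gmnc at −0.94. Hopx, a homeodomain-only factor of alveolar type 1 cells, differed by 0.43 and 0.19 on its probes. Abca3, the lamellar body lipid transporter, had nearly equal signals of 28259 in Mob1DKO cells and 28093 in WT cells, which is −0.90 after scaling. None of these genes passed the 2-fold rule.

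Among the genes next to the factors, Ncald, a calcium sensor gene beside Grhl2, had signals of 206 in Mob1DKO cells and 4.91 in WT cells, and the WT value was not above background by the scanner flag. It was at least 7.74-fold higher, but its second probe cleared background on no array. With normexp its difference was 1.09 with the offset of 50 and 2.66 without, both smaller than that bound of 2.95 on the log2 scale. The neighbours Rnpep of Elf3 and Pibf1 of Klf5 differed by −0.16 and 0.10.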
